A study of Mus musculus with 26 samples.

Results

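Late-stage TCRTg101 cells from livers of leukemia-bearing mice were compared with TCRTg101 cells from spleens of mice without leukemia. TCRTg101 cells are CD8+ T cells that carry 1 transgenic T cell receptor (TCR), which recognizes a natural antigen of C1498, a transplantable mouse leukemia line. Members were chosen by tissue, leukemia and day in the sample labels, with no measured value in the rule, and made up 5 of the 15 RNA-seq libraries of the series (10 of its 26 sequencing runs). The late group held 2 liver libraries, 1 at day 18 from the series titled TG and 1 at day 16 from the series titled XC. The control group held 3 spleen libraries, which were naive cells at day 0 from the TG series, naive cells at day 0 from the XC series, and cells at day 18 from untreated mice in the XC series. All 5 were labelled as C57BL/6, wild type and 6 weeks old. By the study's methods, the T cells came from Tg101 mice on a Rag2-/- background, which cannot rearrange other receptors, and were recovered by cell sorting for low-input RNA sequencing. Those of the leukemia groups had been injected into mice that received C1498 cells by vein a day later. A day 0 library made with oligo-dT priming was left out.

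Several limits are built into these groups. Every late library was liver from a mouse with leukemia and every control library was spleen from a mouse without it, so tissue, leukemia and cell division cannot be told apart. The day 0 controls also differ from the late libraries in day, and only the day 18 control shares a day with a late library. The labels do not say whether the control cells had been transferred, so transfer and time in a host cannot be told apart from the rest. The late TG library was from day 18 and the late XC library from day 16, so series and day cannot be told apart either. The labels do not say whether libraries came from separate mice or from pools, and p-values measure the spread between these libraries, which may be technical. In bulk RNA, fewer cells that express a gene and less of its RNA in each cell cannot be told apart.

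A CD8+ T cell that meets its antigen leaves the resting state in a known sequence. It enters the cell cycle, moves its metabolism towards glycolysis and biosynthesis, loses the transcription factors and homing receptors of naive cells, and gains effector molecules. Under antigen that persists, as in tumors and chronic infection, co-inhibitory receptors and the transcription factors that accompany dysfunction are known to accumulate.

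Values are CPM, the estimated counts of a gene scaled to the same total in every library, with library sizes adjusted by the TMM method. Depth was 28055046 to 65021185 estimated counts in the 5 libraries. Each gene was fitted over the 11 control, undivided, early, mid and late libraries with edgeR's quasi-likelihood test, with group and series as terms, and p-values were adjusted by Benjamini-Hochberg over 14616 tested genes. A gene rose or fell below where its adjusted p was under 0.05. The fitted log2 fold change of late over control is given ± a standard error (SE) derived from the test. This SE is the absolute fold change on the log2 scale divided by the square root of the quasi-likelihood F statistic. Within-series differences are late minus control in log2 CPM, with 1 control in the TG series and the mean of 2 in the XC series, and carry no test. The gene lists were drawn up with earlier results of these data known. A list is described by its counts and median, to be read beside the same figures over all tested genes, whose median log2 fold change was −0.03.

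Trbv5, the beta-chain segment of the Tg101 TCR, took 99.02% to 99.89% of all Trbv counts in each of the 5 libraries. The Trav13 family, which holds the alpha-chain segment, took 73.9% to 87.3% of Trav counts in controls and 96.3% and 91.9% late, divided among near-identical copies of which the highest, Trav13d-2, took 30.2% to 39.9%. The 11 T cell identity genes summed to 28460 to 47550 CPM in controls and to 62950 (TG) and 33710 (XC) CPM in late libraries, with none at 0. RNA of other cells differed between the groups. Red cell precursor genes (6) summed to 5139 and 19780 CPM in the day 0 controls and to 134 CPM in the day 18 control, against 150 and 30.9 CPM in the late libraries. Macrophage genes (11) summed to 1213, 167 and 11.4 CPM in the TG day 0, XC day 0 and XC day 18 controls and to 55.4 and 26.4 CPM late, and dendritic cell genes (6) to 1538, 1367 and 30.8 CPM against 78.3 and 36.8 CPM. Hepatocyte genes (11) summed to 326, 23.4 and 1.24 CPM in controls and to 434 and 118 CPM late, so the TG day 0 control lay between the late libraries. Most of that control's sum was Trf (transferrin, 313 CPM), and 8 of the other 10 genes stood at no more than 0.171 CPM in every control, with Alb (albumin) at 0.0147, 0 and 0.0319 CPM in controls and 126 and 23.6 CPM late, and none of the 11 at 0 in either late library. Ahsg, which encodes the hepatocyte protein fetuin-A, had 0 counts in all 3 controls and stood at 47.8 and 12.5 CPM late, at least 2424-fold higher in the late TG library and at least 633-fold higher in the late XC library against a limit of 3 counts over the control group. Neutrophil genes (7) summed to 12.9 to 262 CPM in controls and to 0.63 and 0.49 CPM late, and the Kupffer cell genes Clec4f and Vsig4 stayed under 1 CPM in every library. B cell genes (7), NK cell genes (3), CD4 T cell genes (2), liver endothelium genes (5) and myeloid blast genes (7) summed to at most 788, 5.59, 5.85, 18.6 and 32.4 CPM. The part of this other RNA in the results below was not tested.

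**Figure D1:**
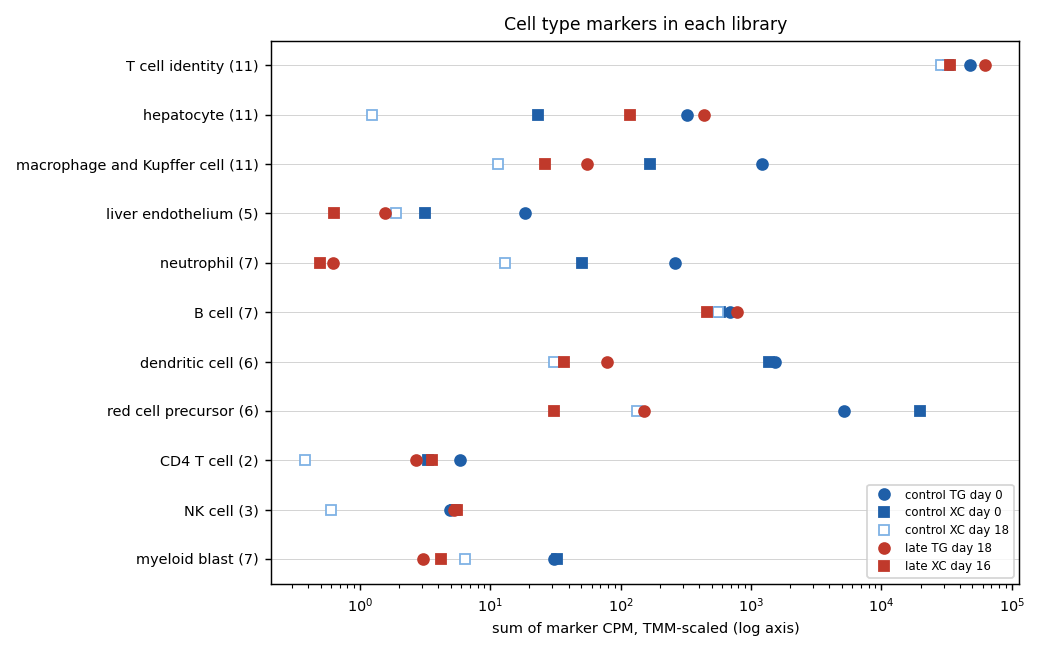
Summed CPM (log axis) of 11 marker lists in each of the 5 libraries, with the number of genes in each list in brackets; circles are TG and squares XC libraries, blue controls and red late, and the open square is the day 18 control. The day 0 controls stand to the right for red cell precursor, macrophage, dendritic cell and neutrophil genes, and the late libraries stand above the 2 XC controls for hepatocyte genes.

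Of the 14616 tested genes, 5482 (37.5%) differed between late and control libraries, with 2900 (19.8%) that rose and 2582 (17.7%) that fell. A rise of more than 2 on the log2 scale was fitted for 947 of them and a fall of more than 2 for 815. Both late libraries lay above every control for 4094 genes (28.0% of those tested) and below every control for 4159 (28.5%), which included 2686 of the genes that rose and 2413 of those that fell. These counts depended on single libraries. Without the TG day 0 control 19 genes were called (18 up and 1 down), and without the late TG or the late XC library edgeR called 0, with 4322 and 5259 genes at an unadjusted p under 0.05. With the day 18 control as the only control edgeR also called 0 genes, with 4103 at an unadjusted p under 0.05 (2079 up and 2024 down). Every call below shares this dependence, and the list medians with that control alone are given for some of the lists. A fit without the series term called 2699 genes.

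Tnfrsf9 (chr4:150914562-150946102, plus strand, GRCm38), which encodes the costimulatory receptor 4-1BB, led the rises among genes with a mean log2 CPM of at least 5 over the 5 libraries. It stood at 5.68, 3.25 and 14.4 CPM in the TG day 0, XC day 0 and XC day 18 controls and at 872 and 474 CPM in the late TG and XC libraries (log2 fold change 6.41 ± 1.41, adjusted p = 0.0165). Anxa2 (annexin A2) went from 40.4, 17.1 and 6.6 CPM to 1401 and 877 CPM (5.75 ± 1.13, adjusted p = 0.0135). The actin-capping gene Capg went from 14.1, 9.74 and 16.6 CPM to 795 and 360 CPM, and S100a6, a calcium-binding protein gene, from 27.1, 7.82 and 2.26 CPM to 480 and 223 CPM. The leading genes here and below were required to show no overlap between late and control libraries and the same direction in both series. Much of the rest of the 15 largest rises belonged to dividing cells, with Top2a (topoisomerase), Hist1h2ap (a replication histone), Stmn1 (microtubule turnover), Uhrf1 (maintenance methylation), Cdc20, Cks1b and Cdca7 at fitted log2 fold changes of 4.17 to 4.87. Hist1h2ap shared 93.4% of its 31-base words with other histone genes, so its own level is uncertain. The other members described here were Ybx3, the nucleoside transporter gene Slc29a1, and Tpi1, a glycolytic enzyme gene with the smallest SE of the group (4.21 ± 0.47, adjusted p = 0.00627).

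Among the 15 largest falls, Ccr9 (chr9:123678439-123784330, plus strand), the receptor for the gut and thymus chemokine CCL25, stood at 194, 218 and 173 CPM in controls and at 4.81 and 1.43 CPM in late libraries (−6.03 ± 1.09, adjusted p = 0.012). Itgae, the integrin CD103, fell from 95.3, 163 and 217 CPM to 7.21 and 7.89 CPM (−4.14 ± 0.89, adjusted p = 0.0156), and Klf3, a repressor of the Krüppel-like family, from 540, 604 and 493 CPM to 44.1 and 48.0 CPM (−3.57 ± 0.63, adjusted p = 0.0111). For these 3 genes too, the lack of overlap with the controls was a condition of the choice. Dtx1 (a Notch pathway ubiquitin ligase), Slc6a19 (a neutral amino acid transporter), Rflnb, Igfbp4, Tdrp, Arl4c, Il6ra and Tgtp1 (an interferon-inducible GTPase gene that shares 84.4% of its 31-base words with other genes) had fitted log2 fold changes of −4.43 to −3.46, and Fos, Jun and S1pr1 are described below. Hbb-bt, a beta-globin gene, had the lowest value (−7.87 ± 2.62, adjusted p = 0.0495) and moved with the red cell RNA of the day 0 controls, at 525, 1108 and 14.95 CPM in controls and 10.9 and 1.67 CPM late.

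The undivided library was 1 XC library of TCRTg101 cells from spleens of leukemia-bearing mice at day 18, sorted for a high level of the division dye CTV, and in it 18 of these 30 leading genes lay within the range of the controls. In the 3 mid liver libraries (days 13 and 14), 29 of the 30 lay beyond every control in all 3, and the exception, Hbb-bt, did so in 2.

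**Figure D2:**
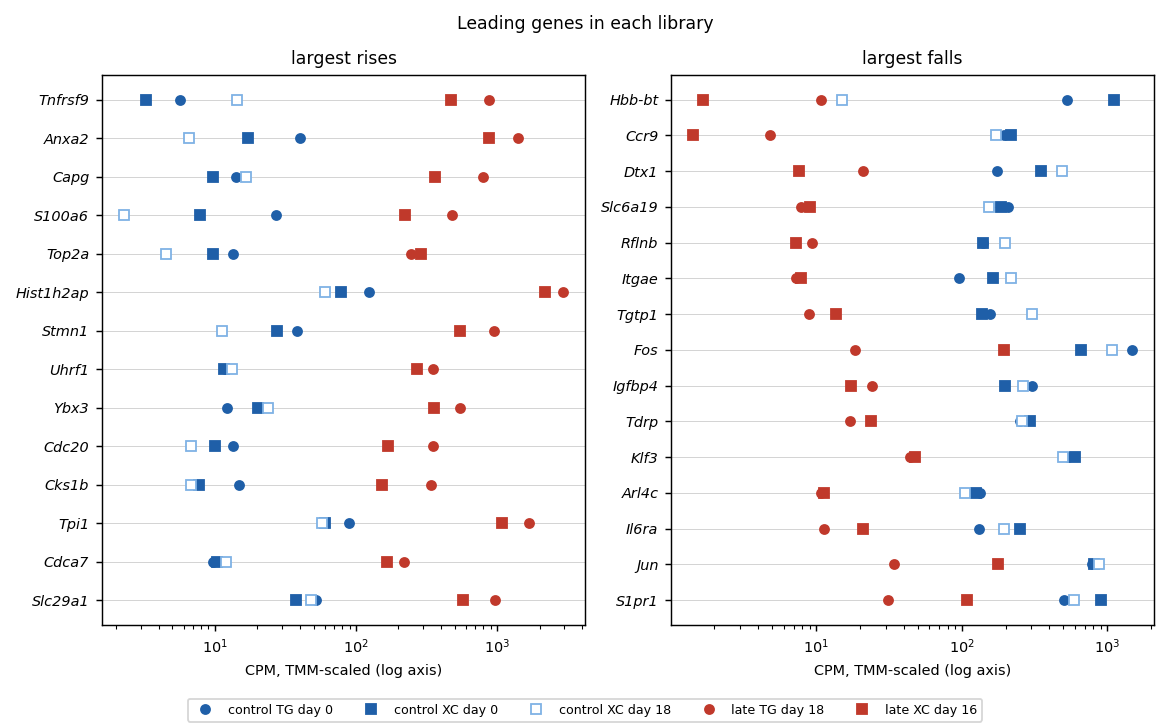
CPM (log axis) in each of the 5 libraries of 14 of the 15 most risen genes and the 15 most fallen genes that the naming rule gave, with circles for TG, squares for XC, blue for controls (open for day 18) and red for late. For every gene shown both late libraries lie on the same side of all 3 controls, which the naming rule required. Hbb-bt is the closest, at 14.95 CPM in the day 18 control and 10.9 CPM in the late TG library.

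A larger share of members rose in the DNA replication and mitosis lists than in any other list described here. Of 51 genes of mitosis and the spindle, 49 rose, none fell and the median log2 fold change was 4.87, and of 40 DNA replication genes 39 rose and the median was 2.12. Ska1, which links kinetochores to microtubules, went from 0.47, 0.19 and 0.0956 CPM to 28.4 and 24.0 CPM (6.64 ± 1.24, adjusted p = 0.0126). Aurkb (Aurora B kinase) went from 3.66, 1.42 and 0.606 CPM to 161 and 106 CPM (6.14 ± 1.38, adjusted p = 0.0171), and Plk1 (polo-like kinase) from 3.76, 2.17 and 1.08 CPM to 215 and 110 CPM (5.93 ± 1.09, adjusted p = 0.0124). The checkpoint kinase gene Bub1b rose by a similar fitted amount (5.89 ± 1.27). Smc4, a condensin subunit (308, 292 and 267 CPM to 201 and 236 CPM, adjusted p = 0.204), and Pttg1, securin (90.2, 61.1 and 60.6 CPM to 99.8 and 51.6 CPM, adjusted p = 0.737), were the 2 that did not pass. With the day 18 control alone the median of the mitosis list was 5.31 and that of the replication list 2.13.

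Among replication genes the loading factor genes Cdc6 and Mcm10 changed most. Cdc6 went from 3.41, 1.01 and 1.05 CPM to 117 and 70.4 CPM (5.65 ± 1.29, adjusted p = 0.0178) and Mcm10 from 1.82, 2.09 and 0.861 CPM to 65.1 and 71.4 CPM (5.39 ± 1.22, adjusted p = 0.0175). Rrm2, which makes deoxynucleotides, and Tk1, which salvages thymidine, rose by 4.85 ± 1.21 and 4.58 ± 0.83. The 6 subunits of the Mcm2-7 helicase had levels of 58.0 CPM or more in controls already and rose by 1.66 (Mcm4) to 3.16 (Mcm5). Cdt1 alone in the list did not pass (64.5, 57.8 and 51.9 CPM to 124 and 78.0 CPM, adjusted p = 0.0594).

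Promoters of these members are shown because the lists moved together and their sequences carry motifs known from cell-cycle genes. RefSeq promoters of GRCm38.p6, which run from 250 bases before to 50 bases after a start, were on hand for 42 mitosis genes, 32 replication genes and 10424 of the 14603 tested gene symbols. CCAAT, the letters bound by NF-Y, and TTTGAA, a core of the cell-cycle homology region, were searched on both strands, as was a set of E2F motifs (TTTCGCGC, TTTGGCGC or TTTCCCGC). CCAAT was found in 31 of the 42 mitosis promoters (73.8%) and TTTGAA in 29 (69.0%), against 39.2% and 13.0% of all tested promoters. An E2F motif was found in 13 of the 32 replication promoters (40.6%) and CCAAT in 19 (59.4%), against 3.47% for E2F in all tested promoters. A match describes the letters only. The 250 bases before the start are printed for the 2 members with the largest rise that held both motifs of their list there, 5′ to 3′ on the gene's strand, with motif letters in capitals (ATTGG is CCAAT on the other strand). They are Ccnb2, which encodes cyclin B2 (chr9:70421555-70421804, minus strand), and Cdk1, its kinase partner (chr10:69352913-69353162, minus strand), with CCAAT and TTTGAA marked, and Orc1, of the origin recognition complex (chr4:108579204-108579453, plus strand), and Mcm5 (chr8:75109259-75109508, plus strand), with E2F and CCAAT marked. In Mcm5 overlapping E2F matches on both strands form 1 run of capitals.
Ccnb2: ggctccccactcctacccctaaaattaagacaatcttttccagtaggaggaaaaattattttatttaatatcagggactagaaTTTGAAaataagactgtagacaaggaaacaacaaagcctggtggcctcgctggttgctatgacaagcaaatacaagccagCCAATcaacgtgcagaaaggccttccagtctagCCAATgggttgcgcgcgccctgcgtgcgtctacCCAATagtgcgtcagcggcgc
Cdk1: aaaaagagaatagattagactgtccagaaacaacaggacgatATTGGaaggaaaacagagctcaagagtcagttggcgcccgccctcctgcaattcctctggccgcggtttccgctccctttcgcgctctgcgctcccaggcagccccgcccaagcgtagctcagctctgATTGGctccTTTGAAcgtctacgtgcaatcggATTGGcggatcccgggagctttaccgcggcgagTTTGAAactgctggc
Orc1: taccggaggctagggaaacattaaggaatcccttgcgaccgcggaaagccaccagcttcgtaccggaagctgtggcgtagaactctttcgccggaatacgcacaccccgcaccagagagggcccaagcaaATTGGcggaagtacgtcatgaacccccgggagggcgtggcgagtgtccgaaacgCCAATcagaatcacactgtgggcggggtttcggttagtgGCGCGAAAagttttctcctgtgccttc
Mcm5: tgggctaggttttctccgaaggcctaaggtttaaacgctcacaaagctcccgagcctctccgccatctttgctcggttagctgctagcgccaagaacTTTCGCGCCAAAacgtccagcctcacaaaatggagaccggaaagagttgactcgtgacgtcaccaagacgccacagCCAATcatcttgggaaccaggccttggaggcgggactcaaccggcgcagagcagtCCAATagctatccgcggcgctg

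Ccnb2 stood at 6.03, 3.29 and 0.669 CPM in controls and at 217 and 171 CPM in late libraries (5.87 ± 1.34, adjusted p = 0.0179), and Cdk1 at 4.82, 2.05 and 1.59 CPM and at 255 and 102 CPM (5.74 ± 1.17, adjusted p = 0.0147). Orc1 went from 1.66, 1.35 and 1.05 CPM to 19.7 and 17.7 CPM (3.76 ± 0.81, adjusted p = 0.0151). Mcm5 went from 58.0, 59.5 and 62.6 CPM to 805 and 404 CPM (3.16 ± 0.62, adjusted p = 0.0128). In all 4 genes both late libraries lay well above every control.

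The regulators upstream of division were mixed. Of 26 tested cyclin, E2F and CDK inhibitor genes, 11 rose and 4 fell, with a median of 1.12. E2f8 (1.07, 0.646 and 0.446 CPM to 21.1 and 42.5 CPM, 5.44 ± 1.16, adjusted p = 0.0154) and E2f7 (3.17 ± 0.62), which repress E2F targets late in the cycle, rose together with the activator genes E2f1 (4.02 ± 0.85) and E2f3 (2.97 ± 0.45) and with Ccne2, cyclin E2 (3.03 ± 0.53). The antiproliferative genes Tob1 (68.8, 79.4 and 56.2 CPM to 9.22 and 24.6 CPM) and Btg2 (526, 321 and 292 CPM to 182 and 112 CPM) fell, as did Cdkn1b, the CDK inhibitor p27 (74.0, 61.3 and 42.0 CPM to 20.4 and 28.2 CPM, −1.28 ± 0.40, adjusted p = 0.0361). Ccnd1, cyclin D1, also fell, from 4.46, 3.32 and 0.446 CPM in controls. Its 2 higher controls were the day 0 libraries with the higher macrophage sums, and the part of macrophage RNA in this fall was not tested. The D-type cyclins of T cells, Ccnd2 (512, 491 and 542 CPM to 958 and 650 CPM) and Ccnd3 (282, 259 and 250 CPM to 461 and 248 CPM), did not pass.

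Of 14 genes that write, maintain or erase DNA and Polycomb methylation 6 rose and 2 fell, with a median of 0.47. Uhrf1, which recruits DNMT1 to hemimethylated DNA, went from 11.7, 11.6 and 13.2 CPM to 351 and 269 CPM (4.63 ± 0.90, adjusted p = 0.0134). Dnmt1 itself went from 64.7, 133 and 136 CPM to 256 and 344 CPM (1.58 ± 0.31, adjusted p = 0.0119), and Dnmt3a (0.75 ± 0.25, adjusted p = 0.0461) and Dnmt3b (0.96 ± 0.21), the de novo methyltransferase genes, rose less. Hells, a remodeler that aids methylation, and Ezh2, the H3K27 methyltransferase, rose by 2.90 ± 0.68 and 2.47 ± 0.65. Tet1, a DNA demethylase gene, fell from 13.5, 22.7 and 17.5 CPM to 1.92 and 4.91 CPM (−2.36 ± 0.38, adjusted p = 0.00924), and the H3K27 demethylase gene Kdm6a from 67.1, 74.4 and 109 CPM to 23.5 and 48.5 CPM (−1.18 ± 0.38, adjusted p = 0.0404). Tet2 (−0.64 ± 0.23, adjusted p = 0.053) and Tet3 (−0.78 ± 0.30, adjusted p = 0.066) did not pass.

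Glycolysis was the metabolic pathway with the largest changes. Of 23 glycolysis genes, 16 rose, 1 fell and the median was 1.80. Slc16a3, the lactate exporter MCT4, went from 2.56, 1.98 and 1.98 CPM to 75.4 and 89.5 CPM (5.25 ± 0.54, adjusted p = 0.00627), and Tpi1 from 89.8, 60.8 and 57.6 CPM to 1679 and 1080 CPM. Hk2, the inducible hexokinase, went from 2.53, 1.31 and 1.43 CPM to 29.7 and 29.0 CPM (4.04 ± 0.91, adjusted p = 0.0173), whereas Hk1 did not pass (0.51 ± 0.21, adjusted p = 0.0895). Gapdh rose by 2.91 ± 0.42 and shares 27.2% of its 31-base words with other genes. Among paralogs of a step, Pfkp, Pfkl, Aldoa, Eno1 and Ldha rose and Pfkm, Eno2 and Ldhb did not pass. Pdk1, which keeps pyruvate from becoming acetyl-CoA by inhibiting pyruvate dehydrogenase, fell from 144, 198 and 249 CPM to 50.5 and 89.9 CPM (−1.38 ± 0.41, adjusted p = 0.0313).

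Mitochondrial genes rose by less. Of 75 nuclear oxidative phosphorylation genes 64 rose and none fell, with a median of 1.06, and the median effective length of the list was 592 bases. Without the series term 7 of the 75 rose (median 1.33). Ndufa12, a complex I subunit, went from 50.3, 33.3 and 33.4 CPM to 238 and 97.5 CPM (1.78 ± 0.42, adjusted p = 0.0175), and Ndufc2, Ndufb8 and Uqcr10, of complexes I and III, rose by 1.52 to 1.70. Sdha (adjusted p = 0.777) and Ndufs1 (adjusted p = 0.756) had the lowest values, at 0.07 each. In the TCA cycle 7 of 16 genes rose and 1 fell (median 0.45). Fh1 (fumarase) rose by 1.70 ± 0.30, Mdh2 by 1.19 ± 0.29, Suclg1 by 1.13 ± 0.24 and Idh3a by 1.09 ± 0.24, and Idh2, which makes NADPH in mitochondria, fell from 133, 101 and 102 CPM to 58.8 and 29.4 CPM (−1.52 ± 0.34, adjusted p = 0.015).

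Of 20 genes of serine, one-carbon and nucleotide synthesis 16 rose and none fell (median 1.48). Psat1, a step from glycolysis to serine, went from 23.1, 16.6 and 29.0 CPM to 341 and 170 CPM (3.29 ± 0.71, adjusted p = 0.0157). Shmt1, which passes serine carbon to folate, went from 11.5, 6.82 and 13.3 CPM to 225 and 66.9 CPM (3.42 ± 0.89, adjusted p = 0.0251). Mthfd2, a mitochondrial folate enzyme gene, rose by 2.16 ± 0.46. Phgdh, the entry step, rose by 2.13 ± 0.47 but shares 55.5% of its 31-base words with other genes. Among 10 amino acid transporter genes 4 rose and 1 fell. Slc7a5, the large neutral amino acid transporter, went from 38.0, 66.3 and 70.4 CPM to 178 and 283 CPM (2.11 ± 0.49, adjusted p = 0.0173), while Slc3a2, the chain it pairs with, did not pass (0.50 ± 0.26, adjusted p = 0.143). Slc1a4, Slc7a1 and Slc38a1 rose by 3.37, 1.34 and 0.77, and Slc38a2 fell by 0.79.

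Sterol genes did not move as a block. Of 23 cholesterol synthesis genes 3 rose (Pmvk, Fdft1 and Ebp), 3 fell and 17 did not pass, with a median of 0.24. The falls included Hmgcs1 (−0.92 ± 0.22, adjusted p = 0.0163) and Insig1 (−0.82 ± 0.24, adjusted p = 0.0289). A call for 6 of 23 is a smaller share than the 37.5% of all tested genes.

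Most proteasome genes rose, most genes of ribosomal proteins did not pass, and the unfolded protein response depended on the fit. Of 34 proteasome genes 31 rose and none fell (median 1.10), among them Psma4 (113, 87.0 and 96.9 CPM to 453 and 222 CPM, 1.56 ± 0.32, adjusted p = 0.0126) and Psmb2 (1.5 ± 0.36). Psmb5 and Psma5 rose by 1.51 and 1.36 and share 65.7% and 58.7% of their 31-base words with pseudogenes or other genes. Of 79 cytosolic ribosomal protein genes 17 rose, a share near the 19.8% of all tested genes, none fell and the median was 0.41. Without the series term 10 proteasome and 1 ribosomal protein gene rose. Against the day 18 control alone the medians were 0.97 for proteasome genes and 0.21 for ribosomal protein genes. The largest ribosomal protein changes were Rpl28 (0.97 ± 0.23), Rpl29, Rpl27 and Rps26. Of 23 genes of the unfolded protein response, the program that expands folding capacity of the endoplasmic reticulum, 10 rose and 1 fell (median 0.95). Both late libraries lay above every control for 16 of the 23. The number that rose was 3 with the day 0 controls only, 6 without the series term, 14 in DESeq2 and 16 without the early libraries. Asns, asparagine synthetase, went from 3.75, 1.18 and 1.72 CPM to 134 and 117 CPM (5.83 ± 1.0, adjusted p = 0.0113). The chaperone cofactor gene Sdf2l1 went from 55.3, 26.1 and 29.0 CPM to 589 and 143 CPM (2.80 ± 0.75, adjusted p = 0.0267), Chac1 rose by 4.61 ± 1.14 and Creld2 by 1.88 ± 0.55. Dnajb9, a co-chaperone that restrains the sensor IRE1, fell from 43.1, 71.0 and 18.8 CPM to 6.40 and 15.6 CPM (−2.04 ± 0.58, adjusted p = 0.0288), and Hspa5, the main chaperone BiP (adjusted p = 0.081), Atf4 and Ddit3 did not pass.

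**Figure D3:**
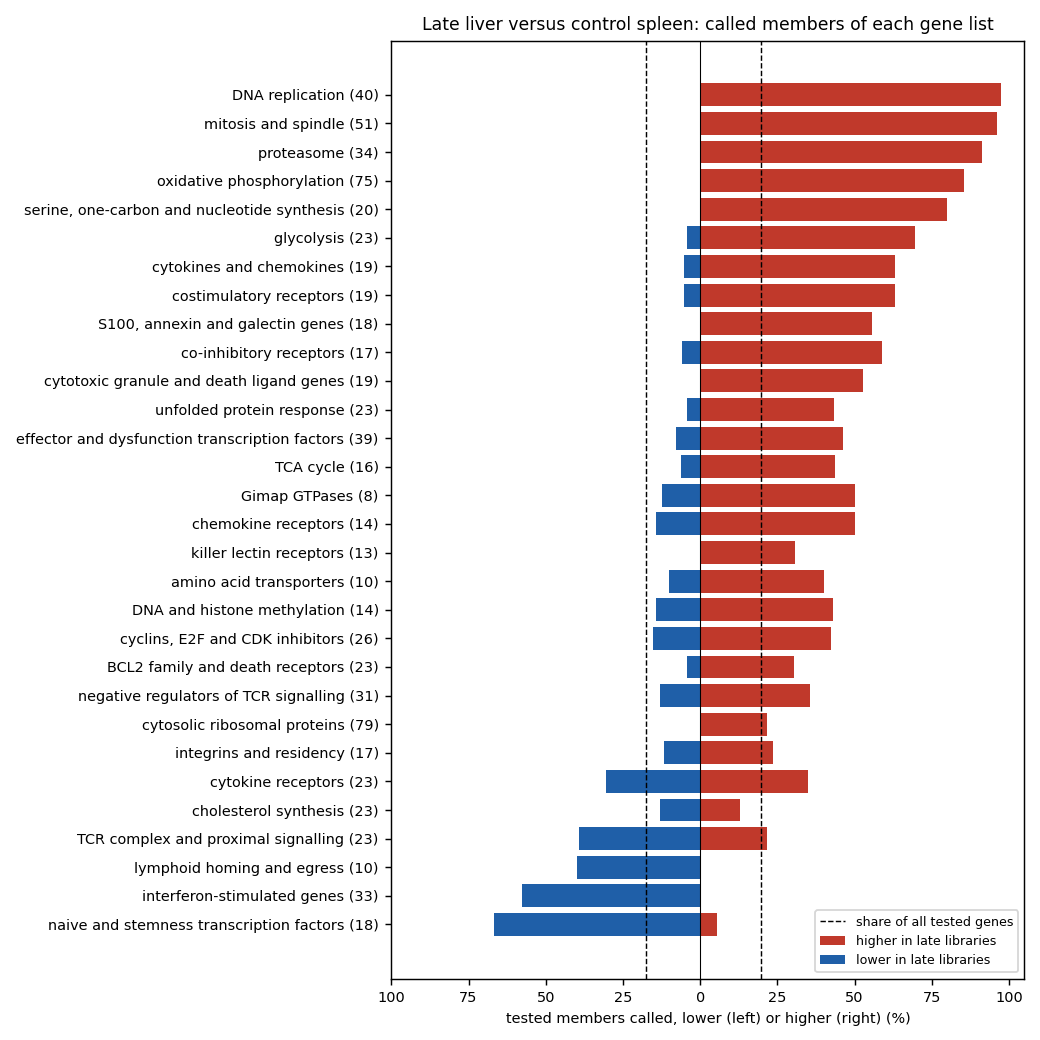
Percent of the tested members of each of 30 lists that rose (red, right) or fell (blue, left), with the number tested in brackets and dashed lines at the shares of all tested genes (19.8% and 17.7%). Replication, mitosis, proteasome and oxidative phosphorylation genes lie far right of the line, and naive transcription factors, interferon-stimulated genes and homing genes extend left of it.

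Most inhibitory and costimulatory receptor genes rose. Of 17 co-inhibitory receptor genes and ligands 10 rose and 1 fell (median 2.88), and of 19 costimulatory genes 12 rose and 1 fell (median 1.78). Against the day 18 control alone these medians were 4.945 and 1.59. Beside Pdcd1, Lag3 and Tigit (log2 fold changes of 8.77, 7.82 and 6.06), the largest rise among inhibitory genes was Cd200, whose product silences cells that bear its receptor, from 2.87, 3.82 and 1.72 CPM to 303 and 226 CPM (6.53 ± 1.30, adjusted p = 0.0139). Cd160 (3.38 ± 0.75), Nt5e, the adenosine-producing CD73 (3.43 ± 0.32), and Pdcd1lg2, the ligand PD-L2 (5.79 ± 1.14), also rose. Havcr2, which encodes TIM-3, did not pass (6.47, 12.4 and 0.319 CPM to 38.0 and 40.9 CPM, adjusted p = 0.182), and Entpd1 (10.4, 5.26 and 0.733 CPM to 29.9 and 32.8 CPM, adjusted p = 0.126) and Cd244a (5.09, 3.68 and 0.797 CPM to 24.5 and 22.9 CPM, adjusted p = 0.0644) did not either. In all 3 genes the day 0 controls, which held the most macrophage and dendritic cell RNA, were above the day 18 control. For Havcr2 the XC day 0 control was the highest, while the TG day 0 control had the highest macrophage sum. The part of that RNA in these values was not tested. Lair1, an inhibitory receptor also found on myeloid cells, fell from 27.9, 6.87 and 9.98 CPM to 5.50 and 2.36 CPM.

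On the costimulatory side, Tnfrsf4, which encodes OX40, went from 3.54, 2.05 and 1.31 CPM to 324 and 183 CPM (6.62 ± 0.92, adjusted p = 0.009). The ligand LIGHT gene Tnfsf14 (1.28, 1.16 and 1.75 CPM to 56.9 and 16.1 CPM, 4.35 ± 1.21) and Slamf7 (7.66, 8.49 and 2.81 CPM to 183 and 69.8 CPM, 4.08 ± 1.24) rose. Icos, Tnfrsf18 (GITR), Tnfrsf1b (TNFR2) and Slamf6 rose by 1.26 to 2.44. Cd27, Cd28 and Cd226 did not pass, with values between −0.46 and 0.51. Tnfrsf25 (DR3) went the other way, from 28.7, 27.7 and 50.8 CPM to 6.11 and 1.97 CPM (−3.17 ± 0.81, adjusted p = 0.0228).

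Killer lectin receptors, best known from NK cells, rose in part. Of 17 listed genes 13 passed the filter on low counts and 4 rose. Their median was 1.58, and 3.59 against the day 18 control alone, where the 13 are those that passed the filter. Klrc1, which encodes inhibitory NKG2A, went from 1.44, 0.665 and 0.351 CPM to 128 and 186 CPM (7.50 ± 1.5, adjusted p = 0.0141), with 53.1% of its 31-base words shared with Klrc2 and Klrc3. Klrk1, the activating receptor NKG2D, went from 11.3, 7.41 and 2.20 CPM to 212 and 223 CPM (4.97 ± 1.20, adjusted p = 0.0203), and Klrc2 and Klra1 rose to at most 13.0 CPM. Klrd1, the CD94 partner of NKG2A, was at 134, 131 and 150 CPM in controls and 134 and 110 CPM late (adjusted p = 0.608), and Klrg1, a marker of terminal effectors, did not exceed 1.57 CPM. The adapter genes Tyrobp (149, 15.8 and 0.478 CPM to 5.04 and 1.26 CPM) and Fcer1g (126, 9.40 and 0.319 CPM to 23.6 and 34.1 CPM) followed the order of the macrophage sums in controls and did not pass. The controls of Klrc1 and Klrk1, which rose, lay in the same order.

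The TCR complex and the kinases around it divided into genes that rose and genes that fell. Of 23 genes 5 rose and 9 fell (median −0.45). The rises were in the receptor chains Cd3e (0.64 ± 0.18) and Cd3g (0.67 ± 0.22), the adapter Lcp2, and the first kinases Fyn (0.79 ± 0.27) and Zap70 (134, 158 and 159 CPM to 435 and 364 CPM, 1.41 ± 0.25, adjusted p = 0.0105). The falls were in the Tec kinase gene Txk (272, 201 and 191 CPM to 64.2 and 53.2 CPM, −1.95 ± 0.31, adjusted p = 0.009) and the adapters Grap2 (−2.05 ± 0.43) and Themis (188, 256 and 249 CPM to 37.5 and 73.4 CPM, −1.99 ± 0.34, adjusted p = 0.00998). Rasgrp1, Prkcq, Malt1, Plcg1 and Ptprc also fell. Lck (1519, 1311 and 1256 CPM to 1312 and 1098 CPM, adjusted p = 0.44) did not pass. With the trend over gene length removed, 3 of the 23 rose and 6 fell, and without the series term 1 rose and 3 fell.

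Negative regulators of TCR signalling were as mixed. Of 31 genes 11 rose and 4 fell (median 0.52). Rgs16, which shortens G protein signals, went from 0.176, 0.228 and 0.414 CPM to 153 and 192 CPM (9.50 ± 1.51, adjusted p = 0.0102), and Spry1, an inhibitor of the RAS-ERK cascade, from 1.13, 0.817 and 1.34 CPM to 93.1 and 130 CPM (6.68 ± 1.32, adjusted p = 0.0139). Spry2 (4.64 ± 0.81) and the ERK phosphatase genes Dusp4 (2.23, 3.48 and 1.47 CPM to 48.6 and 135 CPM, 5.20 ± 1.07) and Dusp6 (1.51 ± 0.24) rose with them. Ubash3b, also known as STS-1, and Rnf128, the ubiquitin ligase GRAIL, rose by 2.68 ± 0.34 and 3.50 ± 0.41. Pag1, a membrane adapter that recruits CSK, fell from 75.2, 96.5 and 79.1 CPM to 10.8 and 22.0 CPM (−2.33 ± 0.39, adjusted p = 0.00998), as did the ubiquitin ligase genes Itch (−1.21 ± 0.27) and Cbl (−0.70 ± 0.21) and the diacylglycerol kinase gene Dgka (819, 930 and 970 CPM to 385 and 445 CPM, −1.06 ± 0.34, adjusted p = 0.0394), while Dgkz rose by 0.67 ± 0.18.

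Cytokine receptor genes changed in both directions. Of 23 genes 8 rose and 7 fell (median −0.24). Il2ra, the high-affinity IL-2 receptor chain CD25, went from 1.03, 0.722 and 1.85 CPM to 74.1 and 125 CPM (6.44 ± 1.26, adjusted p = 0.0134), Il2rb rose by 2.04 ± 0.30, and the shared chain Il2rg did not pass (1319, 797 and 950 CPM to 1366 and 641 CPM). Receptor genes for IL-18, IL-12 and IL-33 (Il18rap, Il12rb1 and Il1rl1) rose by 2.81, 2.20 and 2.86. The falls were in Il7r, the IL-7 receptor (322, 335 and 451 CPM to 32.9 and 108 CPM, −2.47 ± 0.79, adjusted p = 0.0441), Il6ra (132, 253 and 196 CPM to 11.4 and 21.1 CPM, −3.46 ± 0.76, adjusted p = 0.0162) and its partner Il6st, in both TGF-beta receptor chains (Tgfbr1, −1.67 ± 0.25, and Tgfbr2, −1.41 ± 0.40), and in Ifngr2 (80.3, 84.6 and 62.0 CPM to 6.82 and 7.89 CPM, −3.35 ± 0.85, adjusted p = 0.0233). Ifngr1, the other interferon gamma receptor chain, did not pass (345, 194 and 198 CPM to 147 and 240 CPM, adjusted p = 0.472). Csf2rb, a gene of myeloid cells, fell (9.53, 7.77 and 1.02 CPM to 0.397 and 0.219 CPM). The day 0 controls held myeloid RNA, and its part in this fall was not tested.

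Secreted and cytotoxic genes rose in number. Of 19 tested cytokine and chemokine genes 12 rose and 1 fell (median 3.88). Xcl1, which attracts cross-presenting dendritic cells, went from 1.10, 0.399 and 2.39 CPM to 1718 and 309 CPM (9.02 ± 1.84, adjusted p = 0.0147). Csf2 (GM-CSF) went from 0.103, 0 and 0 CPM to 9.16 and 10.9 CPM. Ccl1, the ligand of CCR8, had 0 counts in all controls and stood at 38.0 and 5.01 CPM late, at least 1924-fold higher in TG and at least 254-fold higher in XC against the limit of 3 counts over the control group. Among these genes the late libraries differed most for Il2 (19.1 CPM in TG and 0.576 CPM in XC, with at most 0.0441 CPM in controls), and Tnf (adjusted p = 0.102) and Lta (adjusted p = 0.267) did not pass. Cxcl16, a chemokine of macrophages and dendritic cells, fell from 9.85, 7.67 and 1.56 CPM to 1.02 and 1.04 CPM. Of 19 tested cytotoxic genes 10 rose and none fell (median 1.16), with Gzmk from 0, 0.019 and 0.383 CPM to 48.1 and 17.0 CPM (7.91 ± 2.21, adjusted p = 0.0297) and Fasl from 2.10, 1.77 and 0.191 CPM to 63.3 and 46.7 CPM (5.26 ± 1.27, adjusted p = 0.0206), beside Gzmb and Gzmc at 8.92 and 5.78. Gzmd, Gzme and Gzmf were at 0.219 CPM or less in each of the 5 libraries.

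Receptors of migration changed in both directions. Of 14 tested chemokine receptor genes 7 rose and 2 fell (median 1.77). Ccr8 had 1 count over the 3 controls and stood at 34.9 and 71.1 CPM late, and Ccr10 had 1 count and stood at 1.90 and 1.81 CPM. Cx3cr1 went from 0.779, 0.892 and 0.255 CPM to 18.3 and 36.6 CPM (5.34 ± 1.24, adjusted p = 0.0185) and Ccr6 from 0.735, 0.095 and 0.159 CPM to 29.6 and 12.3 CPM (5.91 ± 1.06, adjusted p = 0.0114). Cxcr3, a receptor of effector T cells, rose by 3.19 ± 0.87, and Cxcr6, a receptor of liver-resident T cells, did not pass (54.7, 34.3 and 130 CPM to 190 and 120 CPM, adjusted p = 0.126).

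Of the 10 genes for lymphoid homing and egress none rose and 4 fell (median −0.95). S1pr1, the receptor that guides T cells out of lymphoid tissue, fell from 508, 906 and 593 CPM to 31.1 and 108 CPM (−3.31 ± 0.70, adjusted p = 0.0149). Klf2, the factor that sustains S1pr1, fell from 1264, 1388 and 787 CPM to 230 and 329 CPM (−2.03 ± 0.58, adjusted p = 0.0294), Ccr7 from 1303, 1347 and 969 CPM to 494 and 546 CPM (−1.22 ± 0.39, adjusted p = 0.0393), and Gpr183 by 0.74. Among 17 integrin and residency genes 4 rose and 2 fell (median 0.45), close to the share of all tested genes. Itgb1 went from 50.1, 83.7 and 73.9 CPM to 360 and 492 CPM (2.85 ± 0.77, adjusted p = 0.0271) and Ly6c2 rose by 2.05 ± 0.47, Itgav by 0.98 and Itgal by 0.83. Itgae and Itgb3 fell, and the residency genes Cd69 (546, 330 and 267 CPM to 126 and 229 CPM, adjusted p = 0.0833) and Zfp683 (adjusted p = 0.549) did not pass.

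Most transcription factors of naive and stem-like T cells fell. Of 18 genes 12 fell and 1 rose (median −1.02, and −0.70 with the day 18 control alone). Satb1, a chromatin organizer of naive T cells, fell from 726, 851 and 700 CPM to 69.4 and 110 CPM (−3.04 ± 0.58, adjusted p = 0.0123). Klf3 and Klf2 are given above, Klf7 fell from 88.0, 70.4 and 63.4 CPM to 17.1 and 15.9 CPM (−2.21 ± 0.33, adjusted p = 0.00872), and Sox4 from 15.8, 39.4 and 12.4 CPM to 3.99 and 4.19 CPM (−2.31 ± 0.47, adjusted p = 0.0126). Lef1 fell by 1.64, whereas its relative Tcf7 (1047, 1755 and 1395 CPM to 625 and 787 CPM, adjusted p = 0.102) and Bach2 (adjusted p = 0.0673) did not pass. Myb, a factor known from stem-like dysfunctional cells, was the exception and went from 15.4, 14.0 and 16.5 CPM to 47.3 and 182 CPM (2.74 ± 0.78, adjusted p = 0.0311).

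Of 39 tested transcription factors of effector and dysfunctional cells 18 rose and 3 fell (median 1.42). Zbtb32 went from 0.515, 0.266 and 0.542 CPM to 266 and 188 CPM (8.94 ± 1.69, adjusted p = 0.0127), Bhlhe40 from 8.26, 7.60 and 1.34 CPM to 183 and 707 CPM (6.08 ± 1.32, adjusted p = 0.016) and Irf4, induced by TCR signal strength, from 2.48, 1.42 and 4.65 CPM to 126 and 104 CPM (5.40 ± 1.19, adjusted p = 0.0164). Tox2, a paralog of Tox, stood at 0.285 CPM or less in controls and at 12.4 and 19.8 CPM late (6.34 ± 1.42, adjusted p = 0.0172). Tbx21, which encodes T-bet, rose by 3.79 ± 0.85 and Prdm1, BLIMP-1, by 3.50 ± 0.61, and Eomes did not pass (6.04, 6.29 and 24.6 CPM to 96.2 and 52.3 CPM, adjusted p = 0.0544). Genes of NFAT and of its partner AP-1 differed among themselves. Nfatc1 rose by 1.76 ± 0.31 and Nfatc3 fell by 0.84, while Fos (1489, 657 and 1079 CPM to 18.4 and 194 CPM, −3.91 ± 1.22, adjusted p = 0.0409) and Jun (779, 817 and 879 CPM to 34.5 and 177 CPM, −3.31 ± 1.01, adjusted p = 0.0388) fell and Fosb (adjusted p = 0.0671) and Junb (adjusted p = 0.189) did not pass. Fos and Jun are immediate early genes, and in both the late XC library lay closer to the controls than the late TG library did.

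Most interferon-stimulated genes fell. Of 33 genes 19 fell and none rose (median −1.17), and in 25 both late libraries lay below every control. Oas2, which makes 2-5A for RNase L, fell from 16.0, 16.5 and 21.5 CPM to 0.23 and 0.247 CPM (−6.12 ± 1.18, adjusted p = 0.0129). Its relative Oasl2 fell from 25.7, 23.2 and 35.1 CPM to 1.59 and 2.79 CPM (−3.63 ± 0.79, adjusted p = 0.0154). Usp18, Irf7, Stat2 and Rtp4 fell by 1.17 to 2.20. The falls included both genes known from type I interferon and guanylate-binding protein genes known from interferon gamma (Gbp2, Gbp4 and Gbp7, by 0.89 to 1.45). Ifih1 (0.58 ± 0.35), Bst2 (−0.11 ± 0.21) and Ifi35 were among the 14 that did not pass. With the day 18 control alone the median was −1.10, and with the gene length trend removed 17 fell and none rose. Without the series term 10 fell.

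The interferon-stimulated response element is the sequence that STAT2 and IRF9 bind after interferon. Its core, a pair of TTTC tetramers with any 2 bases between them on either strand, was chosen as a motif after the values were seen. It was found in 16 of the 24 promoters of the list on hand (66.7%) and in 3.28% of all tested promoters. The 250 bases before the start are printed in the same way, with this core in capitals, for the members with the largest falls that held it there, Ifit3 (chr19:34583279-34583528, plus strand) and Ifi213 (chr1:173599273-173599522, minus strand).
Ifit3: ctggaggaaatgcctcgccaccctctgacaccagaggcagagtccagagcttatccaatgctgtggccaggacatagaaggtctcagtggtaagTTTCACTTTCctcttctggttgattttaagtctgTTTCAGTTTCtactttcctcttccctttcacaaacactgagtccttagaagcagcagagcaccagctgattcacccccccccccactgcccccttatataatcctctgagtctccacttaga
Ifi213: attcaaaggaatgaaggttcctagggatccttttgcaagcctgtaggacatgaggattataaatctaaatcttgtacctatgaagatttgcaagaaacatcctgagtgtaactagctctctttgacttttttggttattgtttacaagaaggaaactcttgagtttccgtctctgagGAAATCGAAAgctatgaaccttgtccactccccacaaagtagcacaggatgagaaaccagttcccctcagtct

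Ifit3, an antiviral RNA-binding protein gene, fell from 44.5, 37.6 and 56.6 CPM to 4.31 and 7.45 CPM (−2.94 ± 0.62, adjusted p = 0.0149), with 61.8% of its 31-base words shared with Ifit3b. Ifi213, of the DNA-sensing p200 family, fell from 112, 84.5 and 99.8 CPM to 11.5 and 22.0 CPM (−2.57 ± 0.54, adjusted p = 0.0145).

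Of 23 BCL2 family and death receptor genes 7 rose and 1 fell (median 0.36), so the share called was close to the 37.5% of all tested genes. The prosurvival genes Bcl2a1b and Bcl2a1d (paralogs of A1 that share 88.8% and 89.1% of their 31-base words with each other and Bcl2a1a) rose by 3.89 and 4.57. Bcl2l1, which encodes BCL-XL, rose by 1.59 ± 0.47 and so did the death effector genes Bcl2l11, BIM, by 1.59 ± 0.29, and Bak1 by 1.80 ± 0.39. Bcl2 (243, 293 and 190 CPM to 109 and 203 CPM, adjusted p = 0.117) and Mcl1 (526, 720 and 544 CPM to 290 and 422 CPM, adjusted p = 0.103) did not pass, and Cflar, the caspase 8 inhibitor FLIP, fell from 112, 120 and 127 CPM to 70.6 and 61.0 CPM (−0.86 ± 0.20, adjusted p = 0.0162).

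Of 18 S100, annexin, galectin and cytoskeletal genes 10 rose and none fell (median 1.54). S100a4 went from 6.59, 1.52 and 0.383 CPM to 386 and 102 CPM (6.32 ± 1.22, adjusted p = 0.0131), with 49.2% of its 31-base words shared, and Lgals1, galectin-1, went from 189, 144 and 24.7 CPM to 1814 and 1039 CPM (3.47 ± 0.89, adjusted p = 0.0237). Anxa1, Lgals3 and Lmna did not pass. Their controls lay in the order of the macrophage sums, as did those of S100a4 and Lgals1, which rose. The 8 Gimap genes, GTPases of lymphocyte survival, were not uniform. Gimap7 went from 81.8, 38.8 and 64.5 CPM to 310 and 210 CPM (2.03 ± 0.33, adjusted p = 0.0094), Gimap1, Gimap4 and Gimap5 rose by 0.67 to 0.80, Gimap8 fell by 1.06, and 3 did not pass.

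The comparison was then made within each series. Of the 5482 genes called, 5478 had the same sign of late minus control in TG and in XC, against 83.1% of all tested genes, and both series entered the fit that made the calls. The other 4 were Gm11223, E130208F15Rik, Gm2223 and Gm12112, which had 0 counts in both TG libraries. Differences were larger in TG for 3874 of the called genes (70.7%), with a median absolute difference of 1.67 log2 CPM in TG and 1.27 in XC. The list medians followed the same order for oxidative phosphorylation (1.47 in TG and 0.84 in XC), the proteasome (1.47 and 0.89), ribosomal proteins (0.68 and 0.24), glycolysis (1.93 and 1.41) and interferon-stimulated genes (−1.44 and −1.003). The order was the opposite for mitosis (4.12 and 5.14) and co-inhibitory receptors (2.26 and 3.69). In the TG series the only control was the day 0 library with the highest macrophage sum, and it held 13.0 CPM of the proliferation gene Mki67 against 3.82 and 1.02 CPM in the XC controls.

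A term for a different late effect in the 2 series was called for 0 genes (0% of those tested) by edgeR's quasi-likelihood test, with the smallest adjusted p at 1 and 277 genes at an unadjusted p under 0.05, and for 3 genes by DESeq2. The smallest unadjusted values in edgeR belonged to the predicted genes Gm47102 (0.000312) and Gm17131 (0.000413), which share 91.3% and 97.7% of their 31-base words with other genes, followed by Gm14253, Gm21961 and Olfr742. For Fos the within-series differences were −6.34 in TG and −2.12 in XC, with an unadjusted p of 0.124 for the term in edgeR, and for Dtx1 they were −3.06 and −5.75, with 0.074. With 1 library of each kind in TG, a p that misses the threshold does not show that the series acted alike.

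**Figure D4:**
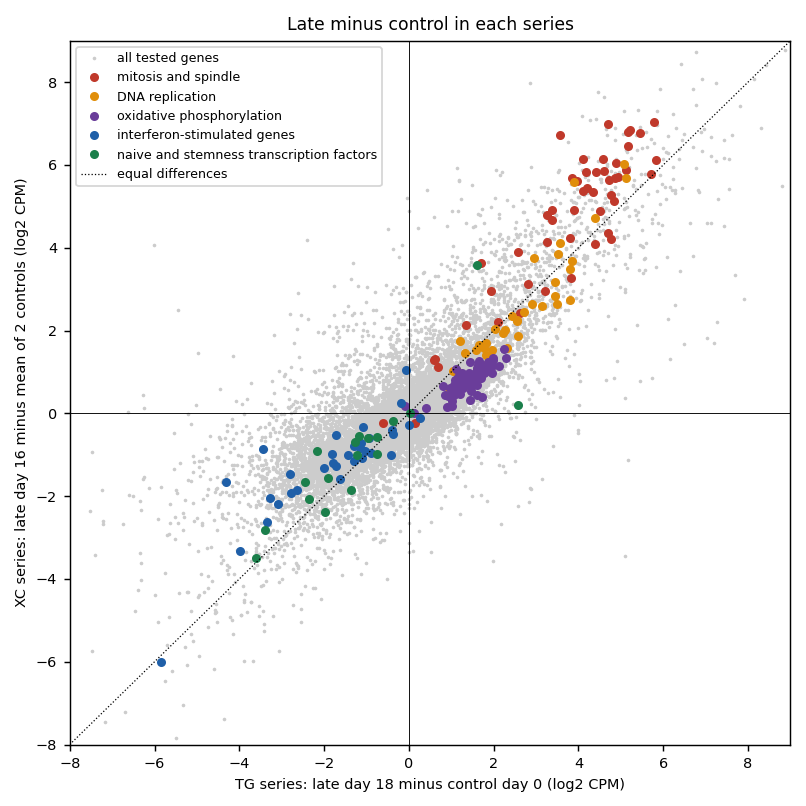
Late minus control in log2 CPM for each tested gene, with the TG series (1 late and 1 control library) on the horizontal axis and the XC series (1 late library and the mean of 2 controls) on the vertical axis; coloured points are members of 5 lists and the dotted line marks equal differences. Mitosis genes lie mostly above the line (medians 4.12 in TG and 5.14 in XC) and oxidative phosphorylation genes below it (1.47 and 0.84).

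The fold change also varied with the length of a gene's transcripts. When the tested genes were split into eighths by effective length, the median log2 fold change was 0.42 in the shortest (up to 825 bases), 0.47 in the next and −0.71 in the longest (4050 bases and over). Over the same eighths the share of genes that rose went from 25.6% to 7.5% and the share that fell from 8.26% to 33.8%. The trend ran the same way in both series, from 0.60 to −0.92 in TG and from 0.31 to −0.52 in XC. A fit with this trend removed, added after the data were seen, called 4921 genes (2881 up and 2040 down), of which 4116 were among the 5482. Under it oxidative phosphorylation had 46 genes up (median 0.72), the proteasome 22 (median 0.80), ribosomal proteins 4 up and 2 down (median 0.04) and the Gimap genes 1 up and none down. Mitosis had 48 of 51 up, replication 38 of 40, glycolysis 20 of 23 and naive transcription factors 10 of 18 down. The cause of the trend was not tested.

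**Figure D5:**
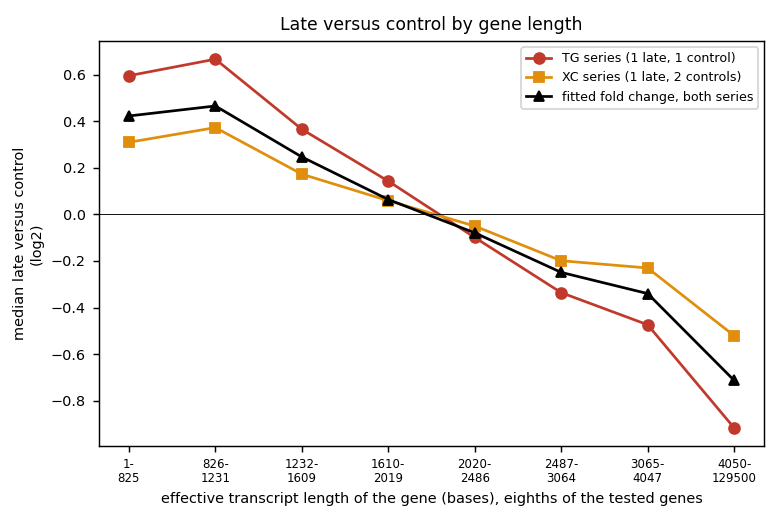
Median late versus control difference (log2) in eighths of the tested genes ordered by effective transcript length in bases, for the TG series, the XC series and the fitted fold change. Beyond the second eighth all 3 lines fall with length, and from the shortest to the longest genes they run from 0.60 to −0.92 in TG and from 0.31 to −0.52 in XC.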

How the data were processed

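RNA of sorted TCRTg101 cells was sequenced by the authors in 2 batches, which were taken here to be the TG and XC series of the titles, and quantified with kallisto. The authors deposited, for each transcript and run, estimated counts and TPM, the latter normalized for length and depth. The kallisto version and the strand setting are not given in the sources used here, so antisense partners cannot be told apart, and kallisto divides reads among near-identical copies.

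Estimated counts were summed per gene with GENCODE vM21 (GRCm38), which matched 98.25% of transcripts and 99.05% to 99.14% of counts (35944 genes), summed over the runs of a library and rounded. A gene entered the fit with 10 or more counts in 6 or more of the 11 modelled libraries. Tests used edgeR 4.0.16 in R 4.3.3 (quasi-likelihood, robust, two-sided, TMM, group and series as terms) with Benjamini-Hochberg adjustment and a threshold of 0.05. Log2 CPM used a prior count of 2. DESeq2 1.42.0 was an alternative, TPM served for an alternative with counts scaled from them, and the procedure was tested on simulated data. Python 3.11.15, numpy 2.4.6, pandas 2.3.3 and matplotlib 3.10.9 made tables and figures. Shared 31-base words were counted over the annotated transcripts.

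Libraries were grouped by labels alone. The members, the 30 gene lists and the 11 marker lists were chosen with earlier results of these data known. Named genes were the 15 largest rises and 15 largest falls among called genes with a mean log2 CPM of at least 5, no overlap between groups and the same direction in both series (2044 genes met this), up to 4 called members each way per list, the 5 smallest p of the series term, and the markers. Other genes were named after their values were seen. The interferon motif and the length correction were also added after the data were seen. The 7 files of the early and mid spleen libraries and of the oligo-dT library were not used. Some genes that the naming rule gave are not reported here. At this depth the number of libraries, not counting error, limits the precision.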

Additional observations from a re-analysis of the deposited data

How the results depend on the processing

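The number of libraries limited these results more than depth did. Against 5482 called genes (2900 up and 2582 down), a model without the series term called 2699 (1559 up and 1140 down). With the day 18 control as the only control 0 genes were called, 0 up and 0 down, with 4103 at an unadjusted p under 0.05 in edgeR. Leaving out each library in turn gave 0 to 4197 called genes, 0 to 2220 up and 0 to 1977 down. The count was 19 without the TG day 0 control, 3418 without the XC day 0 control, 4197 without the XC day 18 control and 0 without either late library, where a lone late library was assumed to vary like the other groups. DESeq2 called 3 genes for the series term (Gm17131, Kansl2-ps and Gm9843), where edgeR called 0. Gm14253, at 3.20, changed sign without the late TG library, and with a library left out its value ranged from −1.28 to 8.73. Other filters, scalings, control sets and run choices gave 4216 to 6694 called genes, and 6283 of 29525 without a filter. Over 177 named genes and the alternatives other than leaving out 1 library or keeping the day 18 control alone, 1996 of 2120 values kept their direction and side of the threshold, 121 lost the call and 3 gained it. In fits with 1 library left out or the day 18 control alone, 779 of 1062 lost it. No paired analysis was possible because the titles carry no replicate numbers shared between the groups, and pairing by series is the series term of the model.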
